A study of Mus musculus with 19 samples.

Results

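Podoplanin is the surface protein used to sort cancer-associated fibroblasts from these tumours, and it also marks the endothelium of lymphatic vessels. The RNA of podoplanin (Pdpn) was therefore followed together with 5 lymphatic endothelial genes (Lyve1, Prox1, Flt4, Mmrn1 and Reln) and 4 blood or pan-endothelial genes (Pecam1, Cdh5, Emcn and Kdr), to ask whether endothelial transcripts were present in the PDPN+ sort. The 10 genes were taken by name out of 51707 genes measured, all 10 were found, and each matched 1 gene identifier. The libraries came from C57BL/6J mice bearing pancreatic ductal adenocarcinomas (PDAC), grown from T-LOH KPC organoids placed orthotopically, and given neratinib, an irreversible inhibitor of ERBB receptor kinases, or vehicle for 2 weeks. PDPN+ cells, labelled as fibroblasts, gave 4 neratinib and 4 vehicle libraries, and EpCAM+ cells, labelled as epithelial, gave 5 neratinib and 6 vehicle libraries. All 4 groups share the host strain, the organoid graft and the 2 weeks of dosing; the sources used here do not give the age or sex of the mice, the dose, or whether endothelial or immune cells were gated out of the PDPN+ sort. Mice are named by the treatment letter (N for neratinib, V for vehicle) and the 5-digit number of the labels, which was read as the animal. That reading is an inference, by which 11 mice gave the 19 libraries and 8 of them gave both populations. If it does not hold, the p-values measure only the spread between these libraries, which may be technical.

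Blood and lymphatic endothelia share a core of surface and junction proteins and differ in the receptors and transcription factors that set their identity. The homeobox factor PROX1 specifies lymphatic endothelium, which senses VEGF-C and VEGF-D through the receptor encoded by Flt4 (VEGFR-3), carries the hyaluronan receptor LYVE1 and secretes reelin (Reln) and multimerin 1 (Mmrn1). The receptor encoded by Kdr (VEGFR-2) is the main VEGF-A receptor of blood endothelium, while PECAM1, VE-cadherin (Cdh5) and endomucin (Emcn) are its adhesion and surface molecules. Podoplanin itself is a mucin-type membrane glycoprotein of fibroblasts, mesothelium and lymphatic endothelium that binds the platelet receptor CLEC-2. None of the other genes is a marker of endothelium in every context, since some macrophages express Lyve1, platelets and leukocytes express Pecam1, and several epithelia express Prox1.

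Promoter sequence is shown for 3 genes whose patterns contrasted in the PDPN+ libraries: Pdpn, present at a high level in all of them, Kdr, present in all but 1, and Emcn, present in 1. Each window runs 5′ to 3′ from 250 bases before to 50 after the annotated start, as RefSeq gives it for GRCm38, which is an earlier build than the GRCm39 named in the submitters' processing notes. The Pdpn window is chr4:143299515-143299814 on the minus strand, the Kdr window chr5:75978406-75978705 on the minus strand and the Emcn window chr3:137340828-137341127 on the plus strand. Capitals mark the ETS-type core GGAAG on either strand; ETS-family transcription factors are well known regulators of endothelial genes.
Pdpn: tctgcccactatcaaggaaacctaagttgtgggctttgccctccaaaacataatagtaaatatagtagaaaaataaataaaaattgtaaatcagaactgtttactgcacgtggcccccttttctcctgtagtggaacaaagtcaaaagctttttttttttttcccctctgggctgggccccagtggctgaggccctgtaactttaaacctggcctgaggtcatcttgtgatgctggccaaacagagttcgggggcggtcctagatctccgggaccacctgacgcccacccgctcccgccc
Kdr: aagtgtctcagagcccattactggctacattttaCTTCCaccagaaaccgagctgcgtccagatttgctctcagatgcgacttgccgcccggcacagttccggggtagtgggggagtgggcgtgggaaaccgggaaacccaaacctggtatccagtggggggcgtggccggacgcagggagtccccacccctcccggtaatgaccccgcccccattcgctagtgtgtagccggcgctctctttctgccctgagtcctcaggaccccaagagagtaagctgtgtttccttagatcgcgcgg
Emcn: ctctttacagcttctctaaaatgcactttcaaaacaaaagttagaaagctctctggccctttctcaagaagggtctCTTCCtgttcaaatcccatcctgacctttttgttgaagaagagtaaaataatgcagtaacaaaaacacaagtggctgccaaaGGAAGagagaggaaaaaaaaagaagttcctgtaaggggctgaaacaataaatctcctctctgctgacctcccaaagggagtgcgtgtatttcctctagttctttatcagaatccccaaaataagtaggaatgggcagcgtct

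The Pdpn window held no GGAAG core, the Kdr window 1 and the Emcn window 2, and 71.4% of 32851 RefSeq promoters of the same length held at least 1. The GC box GGGCGG, searched on both strands, occurred 2 times in the Pdpn window, 2 times in the Kdr window and not in the Emcn window, against 35.7% of all promoters with at least 1. The TATA box letters TATAAA and the GATA-type letters AGATAA occurred in none of the 3 windows, and in 13.6% and 11.2% of all promoters. No GGAAG core overlapped another of these motifs in the 3 windows. The table had entries for 7 of the 10 genes, of which 6 held a GGAAG core and Pdpn did not; Lyve1, Pecam1 and Cdh5 had none. These matches describe letters, not binding.

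Each PDPN+ library held 30.3 to 48.1 M gene reads (M for mega) and each EpCAM+ library 39.4 to 75.4 M, so that a count of 0 in a PDPN+ library allows up to 3 reads, or 0.0624 to 0.0989 CPM (counts scaled to 1 M reads). Such floors cover counting error only, because PCR copies are not independent molecules. The fibroblast list (Col1a1, Col1a2, Col3a1, Dcn and 6 others) summed to 6539 to 10538 TPM (transcripts-per-million) in PDPN+ libraries and to 9.58 to 105 TPM in EpCAM+ libraries, with all 10 genes at 10 or more reads in every PDPN+ library. The epithelial list of 6 genes summed to 274 to 1197 TPM in PDPN+ libraries and to 14724 to 21332 TPM in EpCAM+ libraries. The PDPN+ libraries of V53175 and V53188 stood apart on the first principal component (-162 and -114, against 34.5 to 67.7 for the other 6) and had the fewest genes at 10 or more reads (12102 and 11924, against 13691 to 18602). Among EpCAM+ libraries those of V53175, V53176 and N53178 stood apart (70.9 to 76.4, against -40.0 to -11.0).

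Podoplanin RNA was abundant in every PDPN+ library. It stood at 199.6 (N53178), 277 (N53180), 209.8 (N53184) and 254 TPM (N53194) in PDPN+ neratinib libraries, and at 418 (V53175), 365 (V53179), 312 (V53185) and 237 TPM (V53188) in PDPN+ vehicle libraries. The lowest of the 8 exceeded the highest EpCAM+ library, and the neratinib and vehicle libraries overlapped. In EpCAM+ libraries Pdpn ran from 0.349 to 2.46 TPM with neratinib (median 1.19) and from 0.736 to 2.52 TPM with vehicle (median 1.19). By mean TPM it ranked 441st of 29162 genes above 0 in PDPN+ cells and 12610th of 34754 in EpCAM+ cells. Since the cells were sorted on this protein, the difference between populations checks the labels and is not a result. The major transcript Pdpn-201 took 99.3% of the reads.

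**Figure D1:**
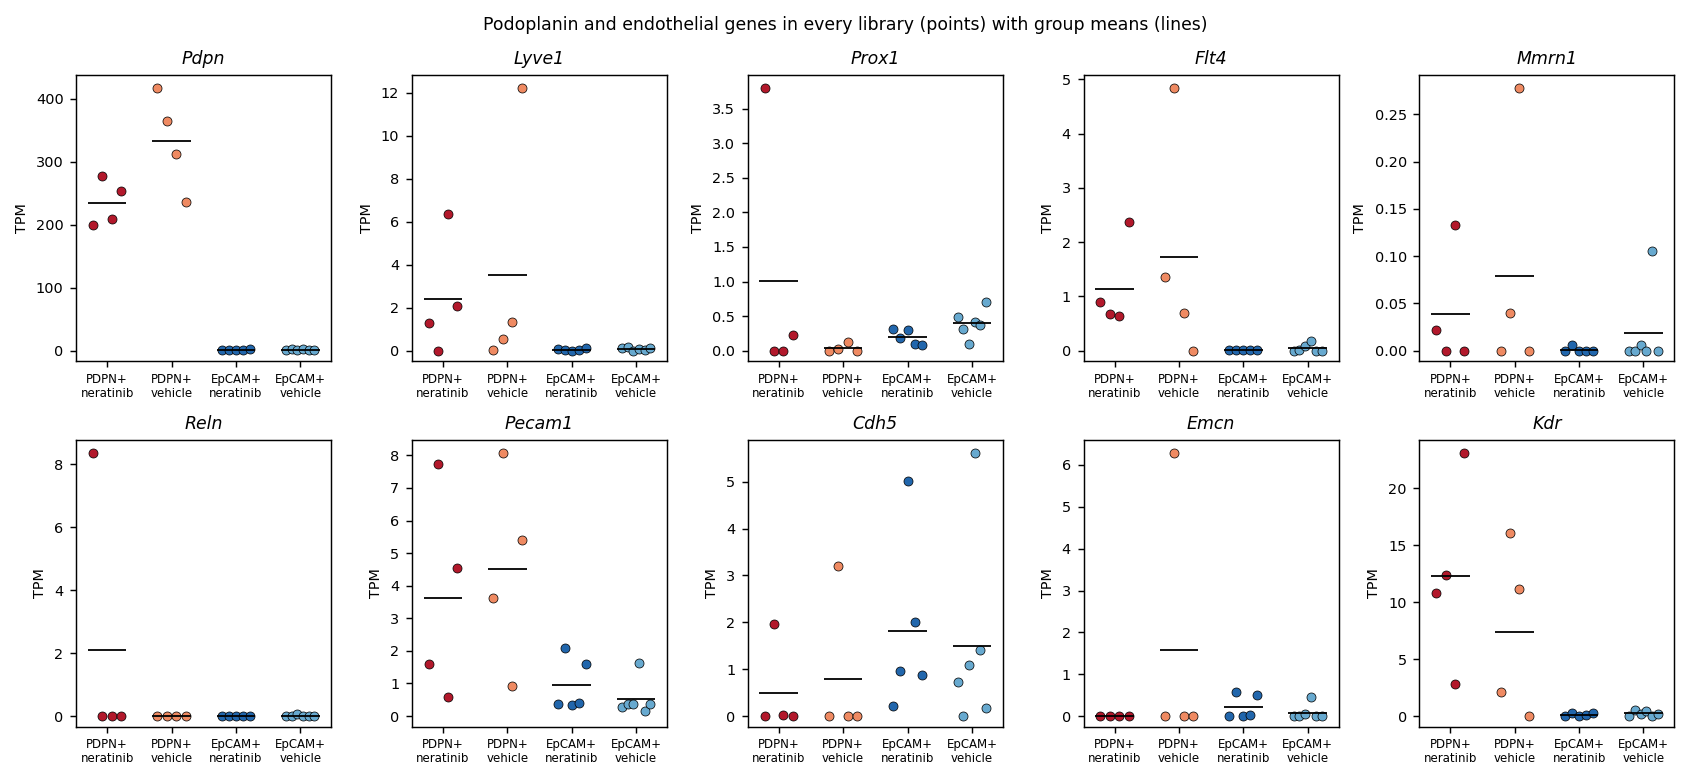
TPM (y axis) of the 10 genes in each library (points) of the 4 groups (x axis), with group means as lines. Pdpn was at 199.6 TPM or more in every PDPN+ library, whereas Prox1, Reln, Cdh5 and Emcn were carried there by 1 or 2 libraries.

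The lymphatic genes had no such uniform pattern, and reads of Prox1 and Reln were concentrated in 1 library. Prox1 stood at 3.80 TPM (907 reads) in the PDPN+ neratinib library of N53178, at 0.231 TPM in that of N53194 and at 0 in those of N53180 and N53184. In PDPN+ vehicle libraries Prox1 was at 0.0260 (V53179) and 0.128 TPM (V53185) and at 0 in V53175 and V53188. The N53178 library alone held 92.7% of the Prox1 reads of the PDPN+ population. Reln followed it, with 8.35 TPM (484 reads) in N53178 and no other PDPN+ library above 1 read, so that 99.8% of its reads were in that library. Of the Reln reads in PDPN+ cells, 63.3% fell on the coding transcript Reln-207 (11699 bases) and 36.5% on the non-coding Reln-205 (891 bases), where each read adds more TPM.

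The lymphatic chemokine gene Ccl21a, which recruits dendritic cells and T cells, was also highest in N53178. It reached 894 TPM there and 72.4 TPM in N53184, against 0 in N53180 and N53194, and in vehicle libraries it was at 6.10 TPM (V53185), 0.554 TPM (V53179) and 0 in the other 2. Near-identical copies (Ccl21b, Gm21541 and Gm13304) share reads with Ccl21a, so its level is uncertain, and in N53180, where Ccl21a was at 0, Gm13304 had 373 reads. The lymphatic valve factor gene Foxc2 was at 155 reads in N53178, 23 in N53180, 100 in V53185 and 0 in the other 5 PDPN+ libraries. The N53178 library also had the highest mitochondrial share of the PDPN+ libraries (19.5%, against 6.14 to 17.3%) and the fewest gene reads, and the part of either in these values was not tested.

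Lyve1 and Flt4, which encode surface receptors of lymphatic endothelium, were highest in other libraries. Lyve1 stood at 1.27 (N53178), 0 (N53180), 6.34 (N53184) and 2.06 TPM (N53194) in PDPN+ neratinib libraries and at 0.0209 (V53175), 0.528 (V53179), 1.34 (V53185) and 12.2 TPM (V53188) in PDPN+ vehicle libraries. Its highest library, V53188, had no read of Prox1, Flt4, Mmrn1 or Reln. That library also had the lowest sum of the macrophage and leukocyte list (13.4 TPM, against 38.6 to 151 in the other 7). Of the 10 genes of that list Csf1r (1657 reads) and Cd68 (13 reads) reached 10 reads in V53188, Ptprc had 1 read, and the other 7, including Adgre1, Mrc1, Folr2 and Cd163, had none. V53188 also had the fewest genes at 10 or more reads of the PDPN+ libraries (11924). The part of macrophages in its Lyve1 level was not tested. In N53184 all 180 Lyve1 reads fell on the retained-intron transcript Lyve1-202 and none on the coding transcript. The same transcript took 124 of 807 reads in V53188 and 9 of 143 in N53194. With coding transcripts only, the Lyve1 mean over PDPN+ libraries was 1.47 TPM, against 2.97 TPM with all transcripts.

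Flt4, the VEGF-C and VEGF-D receptor, was found in 7 of 8 PDPN+ libraries. It stood at 0.897 (N53178), 0.679 (N53180), 0.641 (N53184) and 2.37 TPM (N53194) with neratinib, and at 1.36 (V53175), 4.85 (V53179), 0.696 (V53185) and 0 TPM (V53188) with vehicle. The V53179 library, with 46.4% of the Flt4 reads, was not the one that held most of Prox1 or Reln. Mmrn1 was the lowest of the 10 genes in PDPN+ cells, at 25 reads in N53184, 29 in V53185, 7 in V53179, 3 in N53178 and 0 in the remaining 4. No PDPN+ library had 10 or more reads of all 5 lymphatic genes. N53178 had 4 (all but Mmrn1), V53185 had 4 (all but Reln), N53184 and N53194 had 3, V53179 had 2 and the other 3 libraries had 1.

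Among the blood endothelial genes, the VEGF-A receptor gene Kdr was the most abundant in PDPN+ cells. It stood at 10.8 (N53178), 12.4 (N53180), 2.77 (N53184) and 23.1 TPM (N53194) with neratinib, and at 2.13 (V53175), 16.03 (V53179), 11.2 (V53185) and 0 TPM (V53188) with vehicle. Reads of Kdr ran from 418 to 3943 in 7 libraries, nearly all on the coding transcript Kdr-201 (99.7%), and V53188 had none. The EpCAM+ libraries reached at most 0.501 TPM, below each of those 7.

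The junction gene Cdh5 and the surface gene Emcn were found in fewer PDPN+ libraries than Kdr. Cdh5, VE-cadherin, stood at 1.97 TPM in N53180 and 0.0247 TPM in N53184 among PDPN+ neratinib libraries, and at 3.20 TPM in V53179 among PDPN+ vehicle libraries, and it was at 0 in the other 5. Emcn, endomucin, was at 6.29 TPM (308 reads) in V53179 and at 0 in the other 7, including all 4 neratinib libraries. V53179 was thus the single PDPN+ library with 10 or more reads of all 4 blood endothelial genes. It also held all 417 reads of Robo4, an endothelial guidance receptor gene, and 21 of 27 other endothelial genes at 10 or more reads, next to 22 in V53185 and 7 to 16 in the other 6. Over all genes, V53179 (16150) and V53185 (18602) likewise had the most at 10 or more reads, against 11924 to 14682 in the other 6. The part of this in the endothelial counts was not tested. Kdr was found without Cdh5 in 4 libraries (N53178, N53194, V53175 and V53185), where Cdh5 had no read. Some genes of other lists were uneven too. Over the PDPN+ libraries the pericyte gene Rgs5 ran from 1 to 6253 reads, with its peak in N53180. The epithelial gene Krt18 had 4 reads in V53188, against 2785 to 14014 in the other PDPN+ libraries. All 10 fibroblast genes, by contrast, were at 10 or more reads in every PDPN+ library. The cause of the uneven reads was not tested.

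Pecam1, an adhesion molecule of endothelium, platelets and leukocytes, stood at 1.59 (N53178), 7.72 (N53180), 0.573 (N53184) and 4.56 TPM (N53194) with neratinib, and at 3.61 (V53175), 8.08 (V53179), 0.930 (V53185) and 5.40 TPM (V53188) with vehicle. All 8 libraries had 50 or more reads, but these were not all of coding transcripts. The retained-intron transcript Pecam1-208 took 25.5% of the Pecam1 reads in PDPN+ cells. All 252 reads of V53175 and all 50 of N53184 were on non-coding transcripts, as were 96 of 101 in N53178. Coding Pecam1 reads were at 594 (N53180), 327 (N53194), 892 (V53179) and 477 (V53188), against 17 in V53185, 5 in N53178 and 0 in N53184 and V53175. The platelet list of 5 genes summed to 17.5 to 66.6 TPM in PDPN+ neratinib libraries and 9.62 to 38.9 TPM in PDPN+ vehicle libraries, and its part in Pecam1 was not tested.

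**Figure D2:**
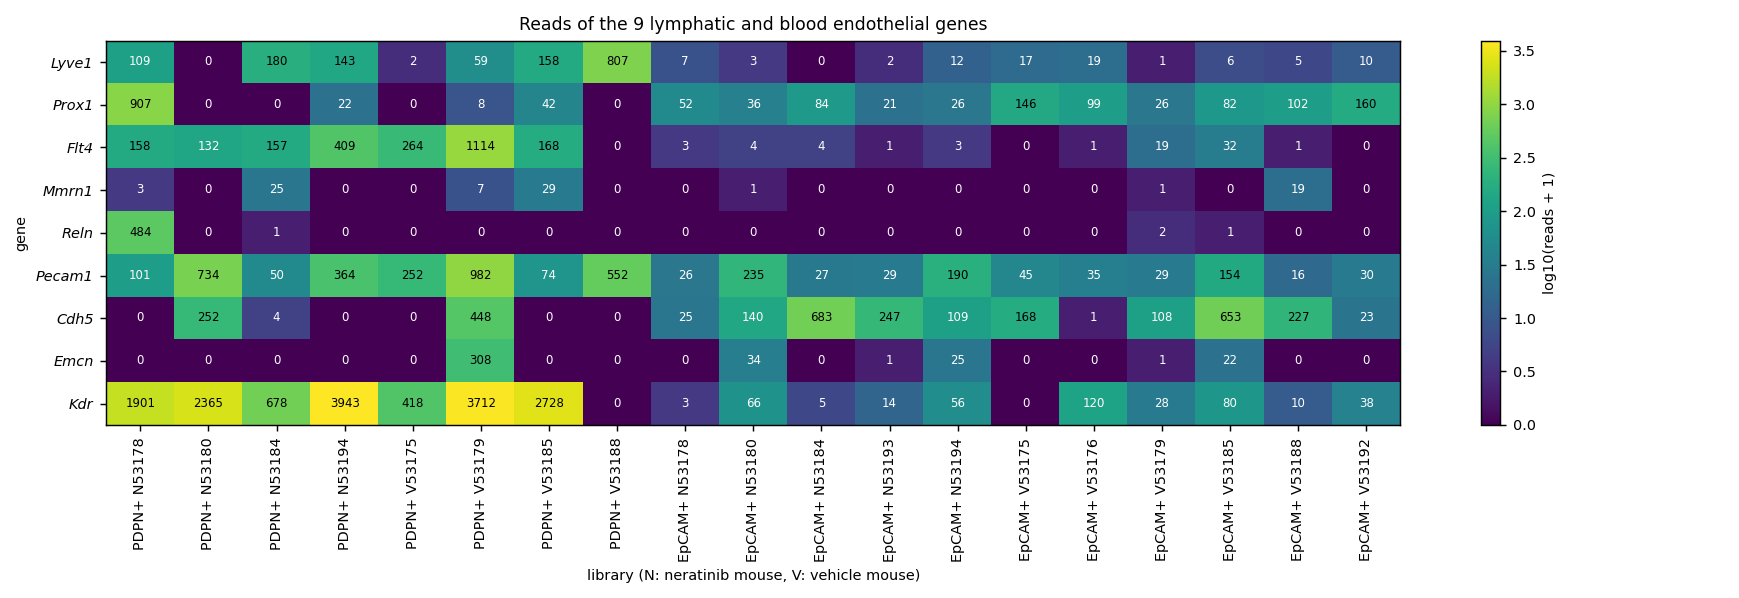
Reads (numbers in cells, colour as log10 of reads + 1) of the 9 lymphatic and blood endothelial genes (rows) in the 19 libraries (columns). Prox1 and Reln peaked in N53178, Lyve1 in V53188, Flt4, Pecam1 and Emcn in V53179 and Kdr in N53194 among PDPN+ libraries, and Emcn had reads in V53179 alone of those 8.

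Ordered by mean TPM in PDPN+ cells, Pdpn (284 ± 76.5, SD, n = 8 for each gene) was followed by Kdr (9.80 ± 7.83), Pecam1 (4.06 ± 2.93), Lyve1 (2.97 ± 4.26), Flt4 (1.44 ± 1.54), Reln (1.05 ± 2.95), Emcn (0.786 ± 2.22), Cdh5 (0.649 ± 1.24), Prox1 (0.523 ± 1.33) and Mmrn1 (0.0591 ± 0.0994). Apart from Pdpn and Kdr, no 2 neighbours in that order differed by more than the larger of their SDs. In EpCAM+ cells the order was Cdh5 (1.65 ± 1.91, SD, n = 11 for each gene), Pdpn (1.34 ± 0.694), Pecam1 (0.731 ± 0.686), Prox1 (0.306 ± 0.191), Kdr (0.182 ± 0.177), Emcn (0.144 ± 0.233), Lyve1 (0.0678 ± 0.0517), Flt4 (0.0327 ± 0.0558), Mmrn1 (0.0107 ± 0.0314) and Reln (0.00764 ± 0.0221). There no neighbours differed by more than the larger SD.

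The first comparison set the PDPN+ sort against the EpCAM+ sort over all 19 libraries. Of 19626 genes tested with edgeR's quasi-likelihood test, 9673 (49.3%) passed at a Benjamini-Hochberg adjusted p under 0.05, 24.3% higher and 25.0% lower in PDPN+ cells. Of the 10 genes, 8 had enough reads to be tested and 5 of these passed, all higher in PDPN+ cells: Pdpn, Lyve1, Flt4, Pecam1 and Kdr. A gene with reads in PDPN+ libraries only can enter the test through those libraries, so the count over tested genes supports nothing by itself. In bulk RNA, fewer cells of a type and less RNA per cell cannot be told apart.

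Kdr was higher in PDPN+ cells by 6.19 on the log2 scale (SE 1.08, edgeR adjusted p = 1.03e-04), and 7 of 8 PDPN+ libraries lay above all EpCAM+ libraries. Flt4 differed by the same 6.19 (SE 1.16, edgeR adjusted p = 2.11e-04), again with 7 of 8 above. Flt4 and Lyve1, at most 32 and 19 reads in an EpCAM+ library, were too low to be tested within EpCAM+ cells. They entered this test through their PDPN+ reads, so the limit given above holds for both. Lyve1 was higher by 5.32 (SE 1.08, edgeR adjusted p = 4.37e-04), but in the fit blocked by mouse, which holds the 8 animals sorted for both, it did not pass (4.56, adjusted p = 0.0658). Its PDPN+ libraries of N53180 and V53175, at 0 and 0.0209 TPM, lay within the EpCAM+ range of 0 to 0.165 TPM. The Lyve1 test used all transcripts, and coding reads alone were not tested. By coding reads N53184 was at 0 as well as N53180, and 5 of 8 PDPN+ libraries reached 10 reads. Pecam1 was higher by 3.00 (SE 0.70, edgeR adjusted p = 0.00148), with the 2 populations overlapping. N53184 (0.573 TPM), V53185 (0.930 TPM) and N53178 (1.59 TPM) lay below the highest EpCAM+ library (2.09 TPM). That test used all transcripts, and coding Pecam1 reads alone were not tested. They ran from 327 to 892 in N53180, N53194, V53179 and V53188 and from 0 to 17 in the rest of the PDPN+ libraries. In EpCAM+ libraries they ran from 4 to 221. Without the PDPN+ libraries of V53175 and V53188 and with no block these 4 genes passed, with Lyve1 at 4.33 and the others at 2.89 to 6.57.

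Prox1, Cdh5 and Emcn did not pass. Prox1 had a log2 difference of 0.21 (SE 1.13, edgeR adjusted p = 0.897), and without mouse N53178 it was -2.38 (adjusted p = 0.0814). Cdh5 had a log2 difference of -0.94 (SE 1.42, edgeR adjusted p = 0.612). Without mouse V53179 it passed as lower in PDPN+ cells (edgeR adjusted p = 0.0189). Cdh5 was then at 0 in every PDPN+ vehicle library left, so the fitted -5.98 depends on the prior count and is not read as a fold. In the fit blocked by mouse Cdh5 also passed as lower in PDPN+ cells (-6.85, adjusted p = 0.0371). Emcn had an edgeR adjusted p of 0.598, and without mouse V53179 of 0.0492. Because Emcn was at 0 in all PDPN+ neratinib libraries, its fitted difference depends on the prior count and is not read as a fold. Mmrn1 and Reln were too low to be tested.

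**Figure D3:**
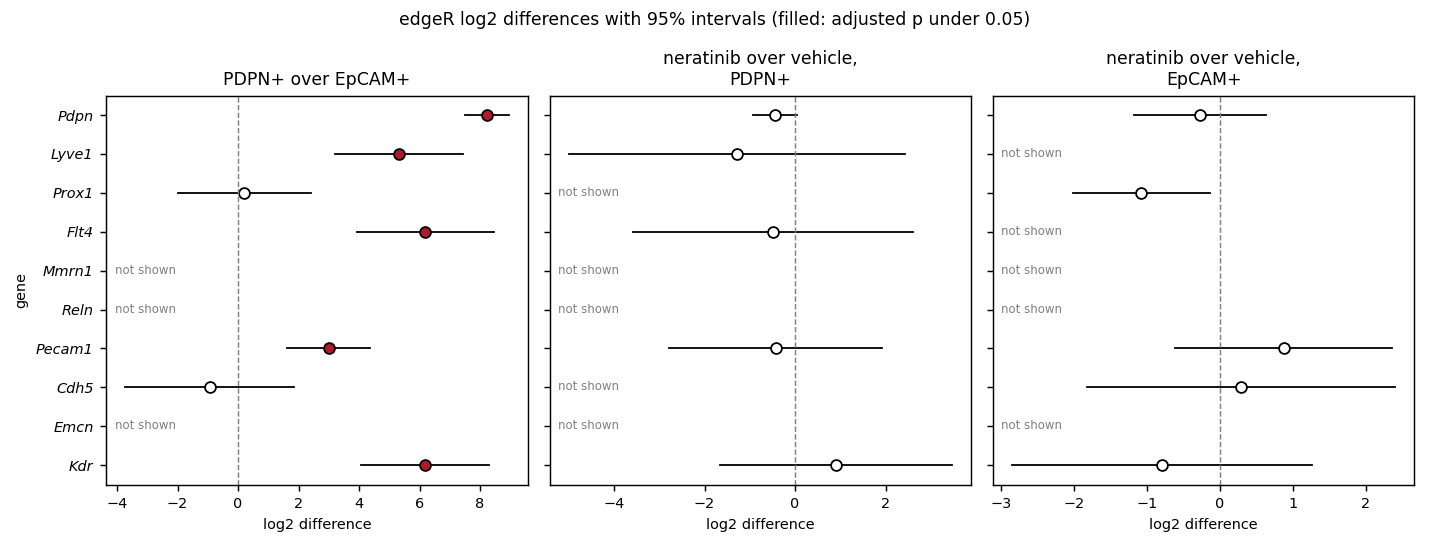
Log2 differences (x axis) with 95% intervals for the genes tested (y axis) between PDPN+ and EpCAM+ cells and between neratinib and vehicle within each population; filled points passed an adjusted p of 0.05, and genes not tested, or at 0 in a whole group, are marked as not shown. Pdpn, Lyve1, Flt4, Pecam1 and Kdr passed between the populations, and none of those tested passed between the treatments.

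Reads of some of these genes were also found in EpCAM+ libraries, and their cell of origin was not tested. Cdh5 was found at 10 or more reads in 10 of 11 of them, from 0.218 to 5.01 TPM with neratinib (median 0.967) and from 0.00636 to 5.61 TPM with vehicle (median 0.915). Its 2 highest libraries were N53184 and V53185, whose PDPN+ libraries had 4 and 0 Cdh5 reads. The EpCAM+ library of N53184, with 683 Cdh5 reads, had 0 Emcn reads and 4 coding Pecam1 reads. That of V53185, with 653 Cdh5 reads, had 22 and 142. Prox1 was found in all 11, at 21 to 160 reads, whereas Reln had at most 2 reads and Mmrn1 reached 19 reads in V53188 alone. Emcn reached 10 reads in N53180 (34), N53194 (25) and V53185 (22) only. Those same 3 libraries had the 3 highest Pecam1 levels (2.09, 1.61 and 1.63 TPM) and 22, 22 and 24 of the 27 other endothelial genes at 10 or more reads, against 14 to 18 in the other 8.

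The comparison of neratinib with vehicle asked whether treatment changed these genes within a population. In PDPN+ cells edgeR's quasi-likelihood test called 0% of 14437 genes (331 had an unadjusted p under 0.05; DESeq2 called 73 and limma on TPM 0), and none of the 5 genes here that had enough reads for the edgeR test. Pdpn averaged 235 ± 36.7 TPM in neratinib libraries and 333 ± 77.2 TPM in vehicle libraries (SD, n = 4 each), a log2 difference of -0.44 (SE 0.25, 95% interval -0.93 to 0.05, edgeR adjusted p = 1.00), and 1 vehicle library lay within the neratinib range. Kdr averaged 12.3 ± 8.36 TPM in neratinib libraries and 7.34 ± 7.56 TPM in vehicle libraries, with a log2 difference of 0.91 (interval -1.65 to 3.46). Pecam1 had -0.43 (-2.79 to 1.93), Flt4 -0.49 (-3.59 to 2.60) and Lyve1 -1.29 (-5.00 to 2.42), so that differences of several fold in either direction lie within the intervals.

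The signs of 3 of these rested on single mice. Without V53188 the Lyve1 difference was 1.17, and without V53179 the Flt4 difference was 0.78 and the Pecam1 difference 0.03, none past the threshold. The macrophage and leukocyte list summed to 47.5 to 151 TPM in neratinib libraries and 13.4 to 97.3 TPM in vehicle libraries, with a median log2 difference of 2.37 over 5 tested genes, none of which passed, against 0.06 for all genes; its part in Lyve1 was not tested. Prox1, Mmrn1, Reln, Cdh5 and Emcn were too low to be tested within PDPN+ cells.

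In EpCAM+ cells the edgeR test likewise called 0% of 17200 genes (524 had an unadjusted p under 0.05; DESeq2 called 15 and limma on TPM 0), and none of the 5 genes tested here; Lyve1, Flt4, Mmrn1, Reln and Emcn were too low to be tested. Prox1 averaged 0.195 ± 0.107 TPM in neratinib libraries (n = 5) and 0.399 ± 0.202 TPM in vehicle libraries (n = 6, SD), a log2 difference of -1.07 (SE 0.48, interval -2.01 to -0.14, edgeR adjusted p = 0.999), and the ranges overlapped. Pdpn had -0.27 (-1.18 to 0.63), Pecam1 0.88 (-0.61 to 2.36), Cdh5 0.29 (-1.82 to 2.41) and Kdr -0.79 (-2.84 to 1.27). The difference between the 2 treatment effects was tested directly over all libraries: edgeR called 13 of 19626 genes (0.0662%), none of them among the 8 tested here. That count was 671 with DESeq2 and 3 with limma on TPM. Leaving out 1 mouse gave 8 to 50 genes, with 50 without V53175, 48 without V53188, 33 without N53194, 20 without N53178 and 8 without N53180 or N53184. Among the 8 genes tested here, the largest fitted value with reads in every group was that of Prox1, 6.16 (SE 2.41, edgeR adjusted p = 0.298), which rests on N53178. DESeq2, but not edgeR (adjusted p = 0.284), called the difference for Emcn (adjusted p = 2.26e-05), whose PDPN+ reads were all in V53179.

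Other genes of the same vessels were counted in lists chosen by name. Of 27 other endothelial genes 25 were tested between populations, and 13 were higher in PDPN+ cells, 3 lower (Sox17, Sox7 and Nos3) and 9 did not pass, where 24.3% of all genes tested were higher and 25.0% lower. The median log2 difference was 3.00 against -0.13 for all genes. The 4 most abundant in PDPN+ cells were found in every PDPN+ library. Cd34, a sialomucin of fibroblasts and endothelium, averaged 278 ± 88.7 TPM in PDPN+ cells and 1.20 ± 1.17 TPM in EpCAM+ cells (log2 8.38, edgeR adjusted p = 2.18e-08). Ecscr, an endothelial adhesion regulator, averaged 64.4 ± 46.0 and 5.58 ± 2.36 TPM in PDPN+ and EpCAM+ cells, Esam, a junction molecule, 37.0 ± 19.5 and 2.60 ± 1.02 TPM, and Eng, endoglin, 22.1 ± 11.5 and 0.843 ± 0.768 TPM. Other genes of the list were patchy: Vwf, Tek, Erg and Cldn5 were at 10 or more reads in 4, 3, 3 and 3 PDPN+ libraries, and Sox17 was at 0 in all 8.

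**Figure D4:**
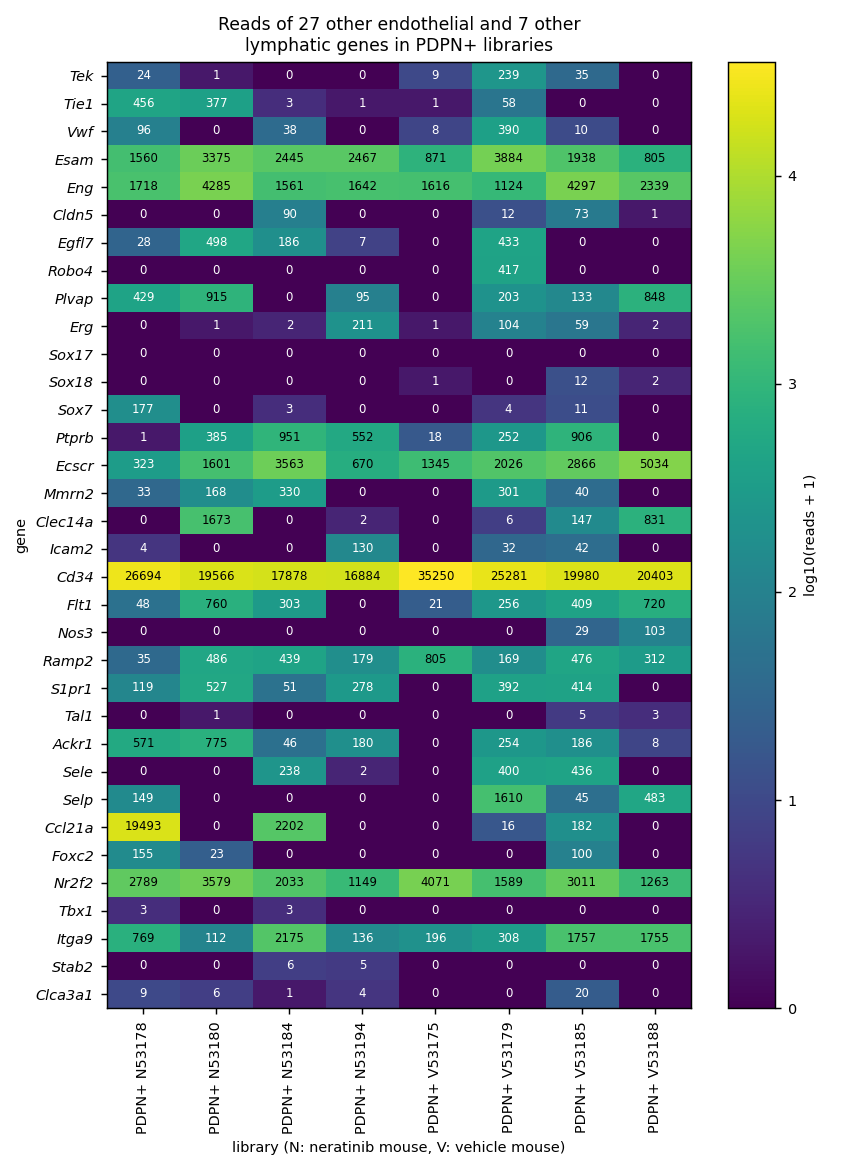
Reads (numbers in cells, colour as log10 of reads + 1) of 27 other endothelial and 7 other lymphatic genes (rows) in the 8 PDPN+ libraries (columns). Cd34, Eng, Esam, Ecscr, Nr2f2 and Itga9 were found in every library, whereas Robo4 had all its reads in V53179 and Ccl21a most of its reads in N53178.

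Of 7 other lymphatic genes 5 were tested, 3 of which were higher in PDPN+ cells (Ccl21a, Nr2f2 and Itga9) and 2 lower (Stab2 and Clca3a1), beside 24.3% and 25.0% of all genes. For Ccl21a, N53178 held 19493 of the 21893 PDPN+ reads and 4 PDPN+ libraries had none. With 3 reads over all EpCAM+ libraries, it entered the test through PDPN+ reads. Nr2f2, a venous and lymphatic transcription factor also made by mesenchyme, averaged 29.2 ± 15.1 TPM in PDPN+ cells and 11.9 ± 1.73 TPM in EpCAM+ cells (log2 2.16, edgeR adjusted p = 1.69e-06). Itga9, an integrin needed for lymphatic valves, averaged 6.51 ± 9.36 and 0.0559 ± 0.0226 TPM in PDPN+ and EpCAM+ cells (log2 6.98, edgeR adjusted p = 4.74e-07). Both were found in all 8 PDPN+ libraries, including those without Prox1.

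Ligands of the receptors encoded by Flt4 and Kdr were measured in the same cells. Of 11 genes of the VEGF and angiopoietin list 5 were higher in PDPN+ cells (Vegfa, Vegfd, Nrp1, Angpt1 and Adamts3), 1 lower (Nrp2) and 5 did not pass. The 6 that passed in either direction, of 11, are near the 49.3% of all genes. Vegfd, a ligand of VEGFR-3, averaged 37.6 ± 22.3 TPM in PDPN+ cells and 1.16 ± 0.386 TPM in EpCAM+ cells (log2 5.59, SE 0.36, edgeR adjusted p = 5.63e-10). Vegfa, the main ligand of VEGFR-2, averaged 17.9 ± 7.58 and 3.60 ± 1.599 TPM in PDPN+ and EpCAM+ cells (log2 2.44, edgeR adjusted p = 2.89e-05). Vegfc, the other VEGFR-3 ligand, had a log2 difference of 0.51 (SE 0.72, edgeR adjusted p = 0.584). The co-receptor gene Nrp1 averaged 19.9 ± 13.0 and 2.36 ± 1.92 TPM in PDPN+ and EpCAM+ cells.

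Of 6 genes for binding partners of podoplanin 5 were tested, 3 of which were lower in PDPN+ cells (25.0% of all genes were) and 2 did not pass. Cd9, a tetraspanin, averaged 371 ± 97.5 TPM in PDPN+ cells and 722 ± 96.2 TPM in EpCAM+ cells (log2 -0.40, edgeR adjusted p = 0.0390). Ezr, which links membrane proteins to actin, averaged 75.0 ± 32.2 and 443 ± 128 TPM, and Cd44, a hyaluronan receptor, 66.1 ± 18.7 and 185 ± 56.4 TPM in PDPN+ and EpCAM+ cells. Msn, the related linker moesin, averaged 190 ± 46.7 and 194 ± 90.2 TPM (log2 0.46) and did not pass. Here and above, the log2 values compare scaled counts and can differ from the ratio of the TPM means, for Msn in sign.

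Markers of other cells were counted beside these genes. In PDPN+ against EpCAM+ cells all 10 fibroblast genes were higher, all 6 epithelial genes were lower, and 7 of 8 mesothelial genes were higher, the exception being Msln. Of 9 macrophage and leukocyte genes tested 4 were higher and 1 lower, of 5 platelet genes 2 were higher and 2 lower, and of 6 pericyte genes 3 were higher, where 24.3% of all genes were higher, 25.0% lower and 49.3% either. The 5 of 9 macrophage and leukocyte genes called are near that share. Msln alone ran from 114 to 664 TPM in PDPN+ libraries and from 572 to 1012 TPM in EpCAM+ libraries, whereas the other 7 mesothelial genes summed to 218 to 1132 TPM in PDPN+ libraries and 1.42 to 24.0 TPM in EpCAM+ libraries. The pericyte list summed to 11.5 to 78.2 TPM in PDPN+ libraries and 3.49 to 14.7 TPM in EpCAM+ libraries. In the neratinib comparisons no tested gene of any list passed the edgeR test.

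The genes whose log2 CPM most resembled those of Pdpn, Pecam1, Cdh5 and Kdr over the 8 PDPN+ libraries were looked up as a description, without a test, since 8 libraries from 2 treatments and 14436 or 14437 candidates give high values readily. Candidates were the genes with enough reads for the test within PDPN+ cells. These left out Prox1, Mmrn1, Reln, Cdh5 and Emcn and kept 13 of the 27 other endothelial genes. None of the 5 nearest to any of the 4 was in a list above, but genes left out could not appear. For Pdpn they were Iqcb1 (Pearson r = 0.98), Ankfy1, Gm4735, AC110913.1 and Morf4l1. For Cdh5 they were Gm42840 (0.97), Angel1, 0610009E02Rik, Sema3g and Exoc3l, of which Sema3g encodes a class 3 semaphorin. For Kdr they were Usp7 (0.99), Zfp821, Nucks1, Wdr91 and Cnot1, with 83 genes above 0.9, and for Pecam1 they were Arl1 (0.95), Lcmt1, Aifm2, Mocs2 and Eif4a2. Kdr was at 0 in V53188, a library that also stood apart over all genes, and the correlations without it were not computed.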

How the data were processed

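RNA-seq of 19 sorted libraries was used. RNA was extracted with a column kit and amplified with a low-input kit whose PCR cycles followed the RNA amount, per the labels' protocols. The deposited tables give, per the file headers, Salmon's estimated counts per transcript (not normalised) and TPM. Salmon 1.9.0 and GRCm39/mm39 are named in the submitters' processing notes. The sources used here name no transcriptome release, options or strand setting, so antisense and overlapping genes may not be separated.

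Of 147828 transcripts, 137063 matched GENCODE M21 (GRCm38, used for names and transcript types). TPM and counts were summed to 51707 genes, and counts rounded. Unmatched transcripts held 1.77 to 8.96% of reads and were left out. Counts were tested with edgeR 4.0.16 in R 4.3.3 (TMM, filterByExpr, robust quasi-likelihood, Benjamini-Hochberg over all genes tested). Populations and the interaction used all 19 libraries with 4 group means, and treatments the libraries of 1 population. Intervals are the estimate ± 1.96 SE. Alternatives were DESeq2 1.42.0 and its size factors, no filter, limma 3.58.1 on log2(TPM + 1) at a minimum TPM of 1, a mouse block, other library sets and coding transcripts only. The block rests on reading the label number as the mouse; deviations of the same number in both populations correlated at -0.16 to 0.05. The code was tested on simulated data. There the neratinib test in PDPN+ cells recovered 0% of 2-fold, 7.46% of 4-fold and 24.2% of 16-fold changes. In EpCAM+ cells it recovered 32.8%, 80.6% and 100%.

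The genes and the 10 lists were chosen with earlier results of these data known. Besides the 10 genes, the text names by rule up to 4 genes per list by mean TPM in PDPN+ cells and the 5 nearest genes by correlation (log2 CPM, prior 0.5) for 4 of them. Genes that fall outside it (those named in counts of 5 or fewer, Vegfc, and single patchy endothelial genes such as Robo4) were chosen after their values were seen.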

Additional observations from a re-analysis of the deposited data

Results flagged for a closer look

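In groups of 4 to 6 libraries a level was picked out where its gap to the nearest other library, over the range of the group, passed Dixon's 95% value. Chance gives about 1 in 20 groups, and 17 of 40 tests passed. Groups in which most libraries are at 0 pass easily.

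Among PDPN+ neratinib libraries, N53178 was picked out for Prox1 (3.80 TPM, next 0.231), Reln (8.35 TPM, next 0.00521) and Ccl21a (894 TPM, next 72.4), N53180 for Cdh5 (1.97 TPM, next 0.0247), N53184 for Mmrn1 (0.133 TPM) and N53194 for Flt4 (2.37 TPM, next 0.897). Among PDPN+ vehicle libraries, V53179 was picked out for Cdh5 (3.20 TPM) and Emcn (6.29 TPM), with all others at 0, V53188 for Lyve1 (12.2 TPM, next 1.34), and V53185 for Mmrn1 (0.278 TPM) and Ccl21a (6.10 TPM). N53178 was thus picked out for Prox1, Reln and Ccl21a, but not for Lyve1, Flt4 or Mmrn1. V53179 was picked out for Cdh5 and Emcn, but not for Pecam1 or Kdr.

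Among EpCAM+ libraries, V53185 was picked out for Pecam1 (1.63 TPM, next 0.384), Cdh5 (5.61 TPM, next 1.40) and Emcn (0.447 TPM, next 0.0474). Single reads or a few reads gave the values of Mmrn1 in N53180 (0.00605 TPM) and Reln in V53179 (0.0735 TPM), and Mmrn1 in V53188 was at 0.105 TPM. The values are given without an explanation.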

How the results depend on the processing

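Over the alternatives, 4 to 7 of the 10 genes were called between the populations. Pdpn (6.95 to 8.37), Kdr (2.67 to 6.77), Flt4 (5.68 to 6.86) and Pecam1 (1.36 to 3.58) passed under every one that tested them. The coding-only alternative gave mean TPM and was not one of these tests. DESeq2 moved the counts of calls to 73 genes for neratinib in PDPN+ cells, 15 in EpCAM+ cells and 671 for the interaction, with 1 of the 10 genes (Emcn, -24.5); limma on TPM called 3 in the interaction, and all 19 libraries in 1 fit called 111 for neratinib in PDPN+ cells. Leaving out 1 mouse moved the interaction to 8 to 50 genes. DESeq2 put Emcn at -7.90 between populations (adjusted p = 0.00208).

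With the replicate block (mouse), 7251 genes and 5 of the 10 passed: Lyve1 (4.56, adjusted p = 0.0658) no longer did, Cdh5 (-6.85, 0.0371) then did, and Prox1 turned to -3.39 (0.214). It changed no other call of the 8 genes tested.

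Signs turned in these cases; the cause was not tested. Lyve1 turned under limma (0.0205 for neratinib in PDPN+ cells, 0.0666 in the interaction) and without the 2 PDPN+ libraries that stood apart (0.60). When 1 mouse was left out, the ranges were -2.38 to 0.53 (Prox1, populations), -5.77 to 1.06 (Emcn, populations), -1.71 to 1.17 (Lyve1), -0.995 to 0.78 (Flt4) and -1.27 to 0.0282 (Pecam1) for neratinib in PDPN+ cells, -0.67 to 0.00557 (Pdpn) and -0.60 to 1.40 (Cdh5) in EpCAM+ cells, and in the interaction -0.46 to 0.26 (Pdpn), -6.38 to 9.25 (Cdh5), -0.29 to 2.05 (Flt4) and -1.01 to 2.11 (Lyve1). Without V53179, Cdh5 and Emcn were at 0 in every PDPN+ vehicle library left, so their values in that fit are not read as folds. A count of 0 allows up to 3 reads, and a call that was missed does not show equal levels.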
